A study of Homo sapiens with 32 samples.

Results

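Connexins are the proteins that build gap junctions, and 5 of their genes are described here: GJA1, GJB2, GJB5, GJB6 and GJC1. They were chosen by symbol and by the class protein-coding in the count tables of both cell lines. They are 5 of the 19815 protein-coding genes among the 60554 genes of the tables, and all 5 were present in both. In GRCh38 with the GENCODE v44 annotation, GJB5 (ENSG00000189280.3) lies at chr1:34755047-34758512 on the plus strand and GJA1 (ENSG00000152661.7) at chr6:121435595-121449727 on the plus strand. GJB2 (ENSG00000165474.5) lies at chr13:20187463-20192938 and GJB6 (ENSG00000121742.15) at chr13:20221962-20232365, both on the minus strand. GJC1 (ENSG00000182963.9) lies at chr17:44798448-44830816 on the minus strand. The values are counts over the exons of each gene.

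The study asked how low oxygen and a block of the mTOR kinase change the total and the ribosome-bound mRNA of a non-tumourigenic and a malignant breast cell line. MCF10A is an immortalised human mammary epithelial line grown with EGF, hydrocortisone, cholera toxin and insulin, and MDA-MB-231 is a human triple-negative breast cancer line grown without them. Cells were in normoxia (N) or in hypoxia at 0.5% O2 for 24 hours (H), and either condition was combined with 2.5 μM PP242, an inhibitor of the mTOR kinase, for 3 hours (NPP and HPP). The other cells received the solvent, DMSO. Total mRNA (T) and the mRNA of the polysome fractions of a sucrose gradient (P) were sequenced from each condition, which gave 8 groups per line with 2 biological replicates each, and 32 libraries in all. Both lines stand for 1 culture model each, and each line has its own count table, so differences in level between the lines and between the tables cannot be told apart.

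Connexins assemble by sixes into half-channels, and a half-channel in one membrane docks with one in a neighbouring cell to form a channel that passes ions and small metabolites. Mammary epithelium is coupled by gap junctions of several connexins, and loss or misplacement of connexins has long been described in breast tumours. GJA1 encodes the most widely expressed connexin of human tissues, GJB2 and GJB6 encode partners that mix in the channels of the inner ear and skin, GJB5 encodes a connexin of stratified epithelia and placenta, and GJC1 encodes a connexin of the heart's conducting tissue and of smooth muscle.

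Promoter sequence from RefSeq (GRCh38.p14) was at hand for 3 of the 5 genes, GJA1, GJB2 and GJB6. The 250 bases before the start of GJB2, the one of the 5 genes called in hypoxia, and of GJA1, the most abundant of the 5 in MDA-MB-231, are shown because they differ in composition. The first is chr13:20192939-20193188 on the minus strand, with copies of the GC box GGGCGG on either strand in capitals. The second is chr6:121435396-121435645 on the plus strand, with the AP-1 motif TGANTCA in capitals.
GJB2: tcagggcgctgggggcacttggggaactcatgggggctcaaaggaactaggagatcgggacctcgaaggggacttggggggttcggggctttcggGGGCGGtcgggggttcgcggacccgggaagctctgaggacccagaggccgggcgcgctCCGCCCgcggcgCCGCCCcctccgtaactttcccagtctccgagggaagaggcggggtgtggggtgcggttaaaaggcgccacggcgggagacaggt
GJA1: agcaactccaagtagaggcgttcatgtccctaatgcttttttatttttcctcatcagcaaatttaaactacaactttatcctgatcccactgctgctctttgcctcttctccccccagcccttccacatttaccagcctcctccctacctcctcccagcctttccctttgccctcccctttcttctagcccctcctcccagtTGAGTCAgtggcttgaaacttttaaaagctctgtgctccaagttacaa

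Positions are counted from the RefSeq start. By the GENCODE spans given above, the last bases of the GJA1 window, its AP-1 motif among them, and all of the GJB6 window fall inside the gene. The GJB2 window was 70.0% G and C and held 3 GC boxes, starting 155, 97 and 85 bases before the RefSeq start. The GJA1 window was 48.0% G and C, held 0 GC boxes and held 1 AP-1 motif 48 bases before the RefSeq start. The GJB6 window was 50.8% G and C and held neither. A GC box was found in 42.6% and an AP-1 motif in 6.6% of the 35116 RefSeq promoters searched the same way. The letters ACGTG or GCGTG, the core at which hypoxia-inducible factors bind, were searched on both strands and were in none of the 3 windows, against 43.2% of all promoters. These are matches of letters in a window of 250 bases and describe neither binding nor its absence.

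Libraries held 18340916 to 46032327 counts, with a median of 34561484. MCF10A libraries ranged from 30302497 to 46032327 and those of MDA-MB-231 from 18340916 to 39536845. Levels are given as CPM, the count scaled to the library's size after TMM scaling within the line, and as TPM where genes or lines are compared, since TPM also divides by exon length.

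The labels of the lines were checked against marker genes. The libraries labelled MCF10A carried the basal keratins at medians of 1920 CPM for KRT5, 1543 CPM for KRT14 and 220.6 CPM for KRT17. CDH3 (P-cadherin) had a median of 7.49 CPM in them, and the other epithelial markers were near 0, with highest values of 0.361 CPM for CDH1 (E-cadherin), 0.461 CPM for EPCAM and 0.226 CPM for TP63. They also carried the mesenchymal markers VIM at a median of 2620 CPM and SPARC at 136 CPM. The label is thus met by the keratins and CDH3 and not by CDH1, EPCAM and TP63. In MDA-MB-231, VIM had a median of 3974 CPM and ZEB1 of 61.9 CPM, KRT5 and KRT14 stayed under 1 CPM, SPARC did not exceed 0.796 CPM, and EPCAM was present at a median of 12.8 CPM. PTPRC of leukocytes and COL3A1 of fibroblasts did not exceed 1.14 CPM and PECAM1 of endothelium did not exceed 2.17 CPM in any library, while COL1A1, also a fibroblast gene, had medians of 8.15 CPM (MCF10A) and 11.3 CPM (MDA-MB-231).

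CA9, a target of the hypoxia-inducible factors, checked the oxygen labels. It stood at 7.73 to 26.9 CPM in the 8 MCF10A libraries without hypoxia and at 522 to 1356 CPM in the 8 with it. In MDA-MB-231 it stood at 0.0568 to 1.02 CPM and at 13.0 to 34.6 CPM, so that no hypoxic library overlapped a normoxic one of its line.

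Some libraries stood apart from their replicate. Over all tested genes, the log2 difference between the replicates of the MCF10A NPP T group had an SD of 1.19, and that of the HPP T group an SD of 0.886, against 0.367 to 0.521 in the 8 MDA-MB-231 groups. MCF10A N P (0.796), H P (0.713), HPP P (0.700) and H T (0.575) also lay above that range, and N T (0.396) and NPP P (0.406) within it. In several MCF10A groups these differences followed transcript length. In NPP T, replicate 2 was lower than replicate 1 by a median log2 value of -1.11 among the genes in the top quartile of transcript length and higher by 0.866 in the bottom quartile. In HPP T the medians were -0.755 and 0.475, and in N P they ran the other way, 0.548 and -0.658. This bears on GJC1, whose longest transcript has 7692 bases, and on GJB5, whose single transcript has 1355. A second measure was taken from genes that were abundant in all libraries of one line and had a median of 0 counts in the other. Of 35 such genes of MDA-MB-231, MCF10A HPP P replicate 2 had counts for 19 with 92 counts in sum, while the other MCF10A libraries had counts for 0 to 6 with at most 13. Of 6 such genes of MCF10A, MDA-MB-231 N T replicate 2, the library with the fewest counts, had counts for 5 with 13 counts in sum, while the other MDA-MB-231 libraries had counts for 0 to 4 with at most 10. The next were HPP T replicate 2 (3 genes, 10 counts) and HPP P replicate 2 (4 genes, 6 counts). MCF10A HPP P replicate 2 and MDA-MB-231 N T replicate 2 also held the highest counts of GJA1 in MCF10A and of GJB6 and GJC1 in MDA-MB-231, where these genes were near 0.

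Each line carried its own set of connexins. GJB5 and GJC1 were MCF10A genes, GJA1 was an MDA-MB-231 gene, GJB2 was present in both, and GJB6 was at or near 0 in both. By mean TPM over the 16 libraries of the line, the order in MCF10A was GJB5 at 63.0, GJB2 at 45.4 and GJC1 at 15.1 TPM, and GJA1 had 0.0372 TPM. The ranges of GJB5 and GJB2 overlapped, since GJB2 ran from 4.72 to 138 TPM and GJB5 from 34.8 to 123 TPM. GJC1 ran from 3.72 to 24.3 TPM, below every value of GJB5. This order is that of the means pooled over conditions and was also found in NPP and HPP, but not in N or H. In N the mean of GJC1 was above that of GJB2, at 21.5 against 5.10 TPM in T and 17.1 against 8.24 TPM in P. In H the mean of GJB2 was above that of GJB5, at 74.5 against 54.4 TPM in T and 109.7 against 77.7 TPM in P. In MDA-MB-231 the order was GJA1 at 25.0 TPM and GJB2 at 4.97 TPM, with ranges of 17.7 to 32.4 and 1.90 to 13.6 TPM that did not overlap, and GJC1, GJB6 and GJB5 had means under 0.1 TPM. After the filter on low counts, 3 of the 5 genes were tested in MCF10A (GJB2, GJB5, GJC1), 2 in MDA-MB-231 (GJA1, GJB2) and 4 in the joint fit of both lines. GJB6 was tested in none.

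**Figure D1:**
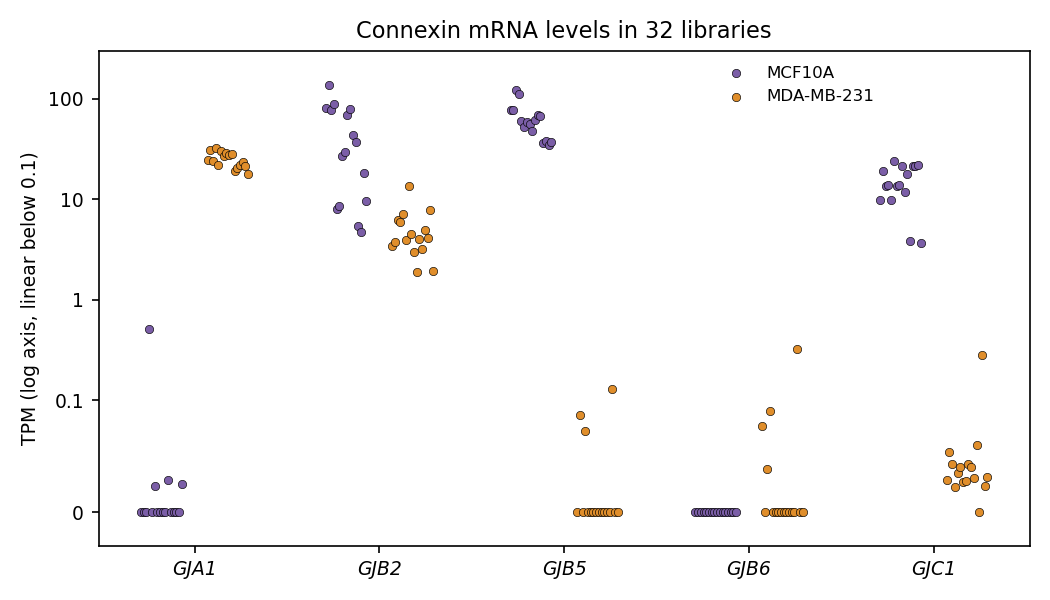
TPM of each connexin in the 16 MCF10A and the 16 MDA-MB-231 libraries, 1 point per library, on a vertical axis that is logarithmic above 0.1 TPM and linear below it. GJB5 and GJC1 lie at 3.716 TPM or more in every MCF10A library and at 0.2855 TPM or less in MDA-MB-231. GJA1 lies at 17.68 TPM or more in every MDA-MB-231 library and at 0.5172 TPM or less in MCF10A. The 2 clouds of GJB2 overlap.

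In normoxia, 3 of the 4 genes tested were called between the lines in T, where 40.7% of the 14298 genes tested were called (adjusted p under 0.05 in edgeR's quasi-likelihood test with Benjamini-Hochberg adjustment), and the same 3 in P, where 45.4% were. GJA1, GJB5 and GJC1 passed the joint filter through the line in which they were high, so they had to differ and nothing is read from this count. GJA1 had 596 and 450 counts in the N T libraries of MDA-MB-231 and 0 in both of MCF10A. By the lower limit of a 95% exact Poisson interval it was at least 387.7-fold higher. In N P it had 497 and 880 counts against 0 and 1, a ratio of 1603 with a 95% exact Poisson interval of 287 to 63342. GJB5 had 590 and 725 counts in MCF10A N T against 0 and 1 in MDA-MB-231, a ratio of 960 (interval 172 to 37948). Its N P counts were 932 and 879 against 0 in both libraries, at least 421.4-fold by the lower limit of the interval. GJC1 had 2216 and 2665 counts in MCF10A N T against 0 and 14, a ratio of 254.5 (interval 152 to 466), and 985 and 2638 against 2 and 3 in N P, a ratio of 623 (interval 267 to 1919). All 14 of the low-side counts of GJC1 in N T were in MDA-MB-231 N T replicate 2, and without that library the low side is 0. The intervals cover counting error only.

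GJB2 did not pass the test between the lines in normoxia. In T it was lower in MDA-MB-231 by a log2 value of -0.64 ± 0.46 (SE, adjusted p = 0.282) and in P by -1.08 ± 0.45 (adjusted p = 0.0572). The P difference passed with DESeq2 and when either MCF10A N P replicate 2 or MDA-MB-231 N P replicate 1 was left out.

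GJB6 had 0 counts in all 16 MCF10A libraries. In MDA-MB-231 it had 12 counts in all, 6 of them in N T replicate 2, and 0 counts in 12 libraries. GJA1 had 0 counts in 12 of the 16 MCF10A libraries and 21 counts in all, 18 of them in HPP P replicate 2. GJB5 had 3 counts over the 16 MDA-MB-231 libraries, and GJC1 had 54, of which 14 were in N T replicate 2. The processed pseudogene GJA1P1, which could share reads with GJA1, had 0 counts in MCF10A and at most 5 in a library of MDA-MB-231.

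Of the 5 genes, GJB2 alone was called for a treatment, and this was in MCF10A. In N it had 4.20 and 3.48 CPM in T and 7.86 and 5.27 CPM in P. In H it had 50.5 and 71.5 CPM in T and 76.4 and 87.7 CPM in P. With PP242 alone it had 12.9 and 11.8 CPM in T and 17.9 and 19.5 CPM in P. Every treated library lay above every N library of its fraction, and the NPP libraries lay between those of N and H. With hypoxia and PP242 together it had 33.7 and 39.5 CPM in T and 50.6 and 50.6 CPM in P. These lay above NPP and below H in both fractions, with no overlap.

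In H the increase of GJB2 over N was 15.9-fold in T (log2 3.99 ± 0.29, SE, n = 2 per group, adjusted p = 0.0001127, edgeR) and 12.5-fold in P (log2 3.65 ± 0.28, adjusted p = 0.0001259). It was the 1 gene called of the 3 connexins tested in each, against 1.54% of all 13124 genes in T and 1.49% in P. In NPP it rose 3.22-fold in T (log2 1.68 ± 0.27, adjusted p = 0.02079) and 2.85-fold in P (log2 1.51 ± 0.26, adjusted p = 0.0245), again as 1 of 3, against 0.648% and 0.823% of all genes. In HPP it rose 9.52-fold in T (log2 3.25 ± 0.28, adjusted p = 8.774e-05) and 7.72-fold in P (log2 2.95 ± 0.28, adjusted p = 0.0001025), as 1 of 3, against 14.9% and 22.2%. H, NPP and HPP were set against the same N libraries, so these 3 increases are not independent of each other. The calls in H and HPP stayed when any 1 library was left out, but the H call in P was lost in a fit of only the 4 libraries compared (log2 3.72), as were both NPP calls. In such bulk libraries a change in how many cells carry GJB2 mRNA and a change in its amount per cell cannot be told apart. The NPP call in P was lost on leaving out any of its 4 libraries, at log2 values of 1.25 to 1.82. The NPP call in T was lost on leaving out N T replicate 1, N T replicate 2 or NPP T replicate 2, at log2 values of 1.55 to 1.82.

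**Figure D2:**
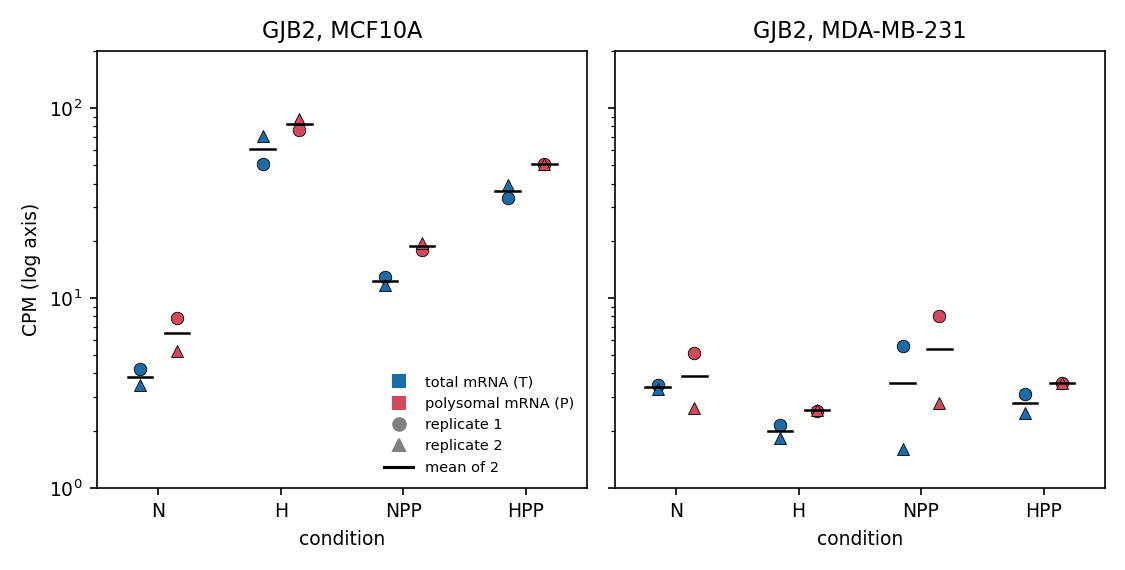
GJB2 in CPM on a logarithmic axis in each condition for MCF10A (left) and MDA-MB-231 (right), with circles for replicate 1, triangles for replicate 2, blue for T, red for P and a bar for the mean of 2. In MCF10A both fractions rise from N to NPP to HPP to H, from 3.48 to 87.7 CPM, and in MDA-MB-231 all values lie between 1.59 and 7.99 CPM.

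Set directly against H, HPP was lower for GJB2 by a log2 value of -0.74 ± 0.26 in T (adjusted p = 0.157) and -0.70 ± 0.26 in P (adjusted p = 0.137), and neither passed the test. None of the 3 connexins was called in this contrast, against 3.74% of genes in T and 6.50% in P. PP242 thus went with higher GJB2 in normoxia and with lower GJB2 values in hypoxia, and the difference between those effects was tested as an interaction that was added after the values had been seen. It was -2.42 in T (95% interval -3.23 to -1.62, adjusted p = 0.399, edgeR) and -2.21 in P (-3.01 to -1.41, adjusted p = 0.885). Before adjustment over the 13124 genes tested, the edgeR p of GJB2 was 3.042e-05 in T and 6.742e-05 in P. With edgeR 0% of genes were called for the interaction in either fraction, while 230 genes in T and 356 in P had an unadjusted p under 0.05. DESeq2 called 6 genes in T and 19 in P, and GJB2 was among them in both.

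In MDA-MB-231 GJB2 was low, and its replicates were wide apart in NPP (T and P) and N P and closer in the other groups. In T it had 3.48 and 3.30 CPM in N, 2.15 and 1.82 in H, 5.55 and 1.59 in NPP, and 3.13 and 2.47 in HPP. In P it had 5.10 and 2.65 CPM in N, 2.55 and 2.58 in H, 7.99 and 2.78 in NPP, and 3.57 and 3.55 in HPP. Both H libraries lay below both N libraries in each fraction, but in P by little for N replicate 2, and the NPP libraries overlapped N. The log2 change in H was -0.76 in T (95% interval -1.90 to 0.38, adjusted p = 0.618) and -0.58 in P (-1.68 to 0.53, adjusted p = 0.609). The log2 change in P was 0.0016 without N P replicate 1, while that in T stayed below 0 without any 1 of its 4 libraries. The other changes were 0.08 (NPP) and -0.28 (HPP) in T and 0.49 (NPP) and -0.11 (HPP) in P, and no interval left out 0.

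The difference between the lines was tested in the joint fit. The H effect on GJB2 was smaller in MDA-MB-231 than in MCF10A by a log2 value of -4.72 ± 0.66 in T (adjusted p = 0.001385) and -4.32 ± 0.65 in P (adjusted p = 0.00329), where 0.266% and 0.329% of all genes were called. The HPP effect was smaller by -3.44 ± 0.65 in T (adjusted p = 0.004586) and -3.09 ± 0.64 in P (adjusted p = 0.007843), against 3.31% and 3.60% of all genes. The NPP effect did not differ past the threshold, at -1.53 (95% interval -2.86 to -0.20, adjusted p = 0.9999) in T and -0.99 (-2.29 to 0.31) in P, where 0.0560% and 0.126% of all genes were called. Of the 4 connexins in the joint fit, GJB2 was called in these contrasts of H and HPP, but GJA1, GJB5 and GJC1 were at or near 0 in one line and had no treatment effect there to compare. The HPP difference in P was no longer called without MDA-MB-231 N P replicate 1, where it stood at -2.55.

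GJB5, the connexin of stratified epithelia, had its highest MCF10A group mean in hypoxia with PP242 in each fraction, but the HPP libraries overlapped those of H in both. In T it had 15.4 and 15.3 CPM in N, 19.1 and 30.0 in H, 13.3 and 24.6 in NPP, and 29.5 and 39.7 in HPP. The HPP libraries lay above both N libraries and the NPP libraries on either side of them. The HPP change in T was a log2 value of 1.17 ± 0.38 (adjusted p = 0.0626), short of the threshold of 0.05, and it passed with DESeq2 (1.25), with the replicate block within each fraction (1.14) and with an offset for transcript length (0.97). In P it had 32.6 and 17.6 CPM in N, 40.1 and 27.0 in H, 21.2 and 19.9 in NPP, and 43.6 and 35.0 in HPP. The HPP change in P was a log2 value of 0.65 ± 0.38 (adjusted p = 0.243), which became 1.03 and passed with the length offset. It was 1.22 without N P replicate 1 and 0.27 without N P replicate 2, and neither was called. Against H, HPP was at 0.49 ± 0.38 in T and 0.23 ± 0.38 in P, and neither was called. The H changes were 0.68 ± 0.38 in T and 0.42 ± 0.38 in P, and the NPP changes were 0.30 and -0.29, none of them called. The H change in P was 1.00 without N P replicate 1 and 0.04 without N P replicate 2.

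GJC1, the connexin of conducting tissue, had its highest MCF10A values in N. In T it had 57.9 and 56.2 CPM in N, 54.7 and 37.2 in H, 54.3 and 15.95 in NPP, and 48.6 and 14.6 in HPP. All treated T libraries lay below both N libraries, by little in replicate 1 and by far more in replicate 2 of NPP and HPP. In P it had 34.4 and 52.9 CPM in N, 32.3 and 42.6 in H, 31.6 and 31.6 in NPP, and 30.9 and 27.8 in HPP. The log2 change in HPP was -0.85 in T (95% interval -2.09 to 0.39, adjusted p = 0.363) and -0.57 in P (-1.80 to 0.66, adjusted p = 0.500), and those in NPP were -0.70 and -0.47. The lowest T values, 15.95 CPM in NPP and 14.6 CPM in HPP, were in replicates in which long transcripts were low as a class. This was not so for the lowest P value, 27.8 CPM in HPP replicate 2. There the longest quartile was higher than in replicate 1 by a median log2 value of 0.058. With the length offset, the T values were -0.53 in NPP (adjusted p = 0.437 in edgeR) and -0.80 in HPP (adjusted p = 0.0579), and neither was called. The P values with the offset were -0.55 in NPP (adjusted p = 0.322) and -0.74 in HPP (adjusted p = 0.0619). Both were lower than without it, and neither was called. Without replicate 2 of the treated group the T values were -0.07 in NPP and -0.23 in HPP, and without replicate 1 they were -1.84 and -1.87, none of them called. The HPP value against H in T turned from -0.54 to 0.03 without HPP T replicate 2.

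GJA1, the most abundant of the 5 connexins in MDA-MB-231, lay between 18.9 and 37.4 CPM in all 16 libraries of the line. In T it had 21.4 and 25.6 CPM in N, 26.9 and 37.4 in H, 20.8 and 20.0 in NPP, and 20.5 and 21.5 in HPP. Both H libraries lay above the other T libraries, both NPP libraries lay below both N libraries, and HPP overlapped N. In P it had 21.7 and 28.4 CPM in N, 25.5 and 29.1 in H, 21.6 and 24.2 in NPP, and 18.9 and 26.5 in HPP, with all conditions overlapping N. The log2 change in H was 0.45 ± 0.20 in T (adjusted p = 0.364) and 0.12 ± 0.20 in P (adjusted p = 0.802). HPP was lower than H in T by -0.61 ± 0.20 (95% interval -1.04 to -0.18, adjusted p = 0.106), a value that passed with either replicate block (-0.59 and -0.60). The intervals for NPP and HPP against N lay between -0.63 and 0.30 in both fractions.

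In MDA-MB-231, 0 of the 2 connexins tested, GJA1 and GJB2, was called by edgeR in any treatment contrast. Of all 13510 genes, 1.27% were called in T and 2.29% in P for H, 0.555% and 1.95% for NPP, 13.2% and 19.4% for HPP, and 3.78% and 11.5% for HPP against H. GJA1 had an unadjusted p under 0.05 in T for H and for HPP against H, and GJB2 in none of these contrasts. DESeq2 called neither gene.

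**Figure D3:**
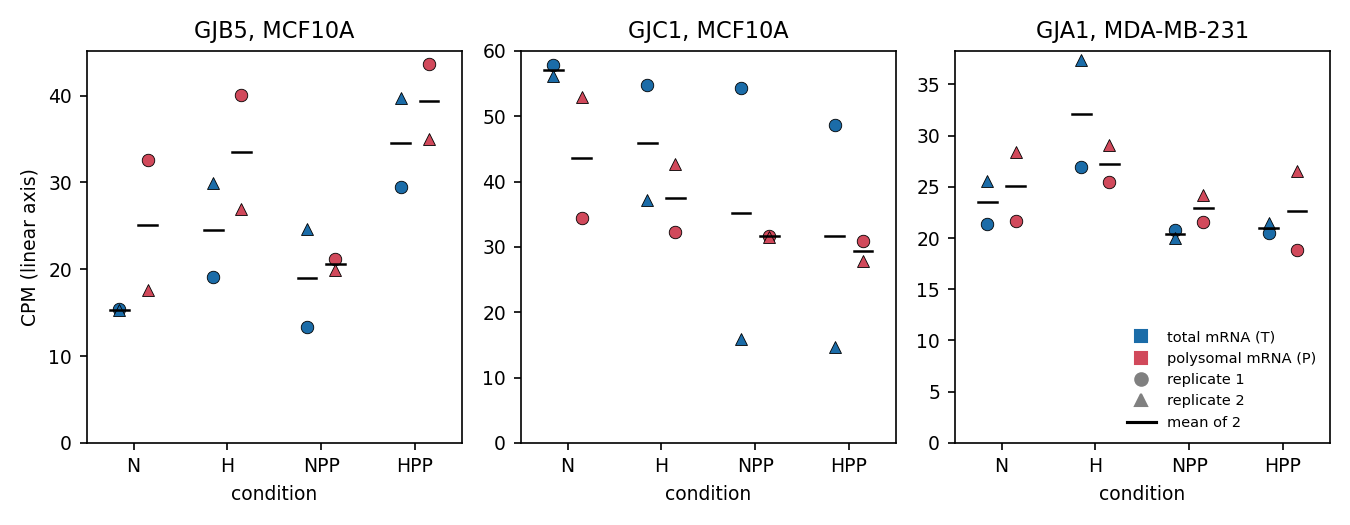
GJB5 and GJC1 in MCF10A and GJA1 in MDA-MB-231 in CPM on linear axes that start at 0, with circles for replicate 1, triangles for replicate 2, blue for T, red for P and a bar for the mean of 2. The wide gaps between the replicates of GJC1 in NPP T (54.3 and 15.95 CPM) and HPP T (48.6 and 14.6 CPM) exceed any difference between group means in that panel.

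**Figure D4:**
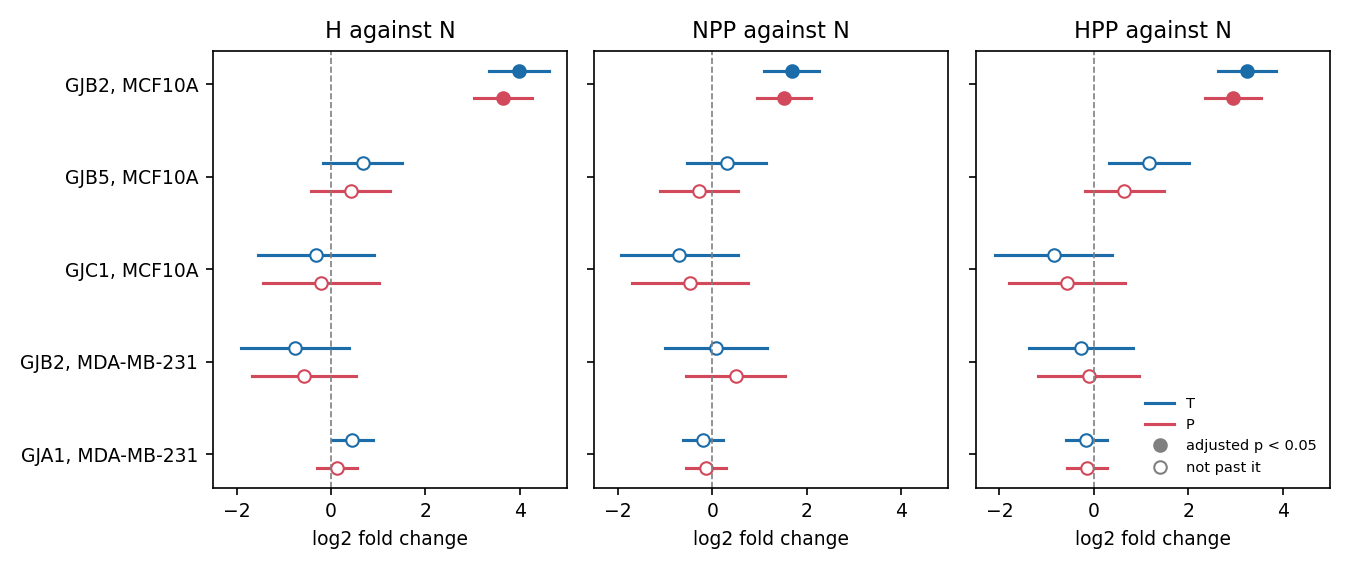
Log2 fold change against N of each connexin tested, with its 95% interval, in T (blue) and P (red), for H, NPP and HPP. Filled points had an adjusted p under 0.05 and are those of GJB2 in MCF10A alone, at 1.51 to 3.99.

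Te, the translation efficiency change taken as the change in P minus that in T, was not called for any connexin. For GJB2 in MCF10A it was -0.34 ± 0.36 in H, -0.17 ± 0.37 in NPP and -0.30 ± 0.36 in HPP. The 95% intervals were -1.14 to 0.45, -0.97 to 0.62 and -1.10 to 0.49, so each held 0 and left room for a change in either direction. The fit behind them took T and P libraries as independent and did not pair those that share a number in their titles. GJB5 and GJC1 had Te values between -0.59 and 0.28, and in MDA-MB-231 GJA1 and GJB2 had values between -0.33 and 0.41. In MCF10A 0% of genes were called for Te under H, NPP or HPP, with 23, 296 and 433 genes at an unadjusted p under 0.05, and DESeq2 called 0, 94 and 140. In MDA-MB-231 0.0148%, 0.340% and 0.696% were called.

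In normoxia the polysomal level was compared with the total level, each relative to the mean gene. GJB2 in MCF10A was higher in P by a log2 value of 0.77 ± 0.26, GJB5 by 0.71 ± 0.38, and GJC1 was at -0.39 ± 0.56. None of the 3 was called (adjusted p = 0.334 for GJB2), nor was any other gene of the line (0%, with 1660 at an unadjusted p under 0.05, while DESeq2 called 0.77%). These values moved with 1 library. Without N P replicate 1 they were 0.38 for GJB2, 0.12 for GJB5 and -0.19 for GJC1, and without N P replicate 2 they were 1.03, 1.09 and -0.73, none of them called. GJB5 passed with the replicate block within each fraction (1.11), but not with the plain replicate block (0.71, adjusted p = 0.461, edgeR), with the block by culture (0.64, adjusted p = 0.648) or with the length offset (0.36). Its P value lay far above T in replicate 1 (32.6 against 15.4 CPM) and little above it in replicate 2 (17.6 against 15.3 CPM). In MDA-MB-231 GJA1 was at 0.10 ± 0.20 and GJB2 at 0.18 ± 0.51, and neither was called, where 13.1% of genes were.

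Counting all conditions together, the order of the 8 MCF10A groups for GJB2 was H P, H T, HPP P, HPP T, NPP P, NPP T, N P and N T, and of the 7 pairs of neighbours in this order H T and HPP P alone overlapped. For GJB5 every pair of neighbours overlapped, from HPP P at a mean of 39.3 CPM to N T at 15.3 CPM. For GJC1 neighbours overlapped except N T above H T and NPP P above HPP P, and for GJA1 in MDA-MB-231 all neighbours overlapped.

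The other 16 connexin genes were read from the same fits. In MCF10A 5 of them passed the filter on low counts, and none of the 5 was called in H or NPP. Under HPP 3 of the 5 rose in T and 3 in P, where 14.9% and 22.2% of all genes were called, and 0 fell. Against H, 1 of the 5 was higher in HPP in each fraction, where 3.74% and 6.50% of all genes were called. Among those that rose in P was GJA3, which encodes a connexin of the eye lens, by a log2 value of 1.79 ± 0.41 (adjusted p = 0.00995, edgeR). In MDA-MB-231 4 of the 16 were tested and 0 were called in any treatment contrast, where 1.27% (T) and 2.29% (P) of all genes were called for H, 0.555% and 1.95% for NPP, 13.2% and 19.4% for HPP, and 3.78% and 11.5% for HPP against H. At such shares nothing is read from 0 of 4. Between the lines in normoxia 6 were tested and 3 were lower in MDA-MB-231 in T and 3 in P, against 40.7% and 45.4% of all genes called. GJA3 was among them in T, at a log2 difference of -1.16 ± 0.34 (adjusted p = 0.00966).

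Of the 3 pannexins, which form channels without docking, PANX1 and PANX2 were tested. Neither was called in any treatment contrast in either line. PANX2 was lower in P than in T in normoxic MDA-MB-231, at a log2 value of -2.17 ± 0.58 (adjusted p = 0.0268), 1 of 2 against 13.1% of all genes called. Between the lines in normoxia, PANX1 was higher in MDA-MB-231 in T (0.43 ± 0.17, adjusted p = 0.0496) and in P (0.48 ± 0.17, adjusted p = 0.0268), and PANX2 was lower in P (-1.65 ± 0.52, adjusted p = 0.0132). These were 1 of 2 in T and 2 of 2 in P, against 40.7% and 45.4% of all genes.

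Of 16 junction proteins that sit beside or bind connexins, 15 were tested in each line. In MCF10A JUP, the plakoglobin of desmosomes and adherens junctions, rose under NPP (log2 1.69 ± 0.33 in T and 2.13 ± 0.33 in P) and under HPP (2.41 ± 0.34 in T and 2.85 ± 0.34 in P), and it was the one of 15 called under NPP, where 0.648% (T) and 0.823% (P) of all genes were. Under HPP 2 of 15 rose in T, JUP and the desmosomal PKP3 (0.96 ± 0.28). In P 5 of 15 rose, JUP, PKP3 (1.10 ± 0.28), the membrane linker EZR (1.26 ± 0.28), P-cadherin CDH3 (1.31 ± 0.36) and the catenin CTNNA1. Of all genes, 14.9% in T and 22.2% in P were called under HPP. None of the list fell, and none was called in H. The medians under HPP were 0.53 in T and 0.35 in P, beside -0.01 and -0.04 over all genes. In MDA-MB-231 the desmoplakin gene DSP alone rose under HPP, by 1.03 ± 0.22 in T and 1.23 ± 0.22 in P, 1 of 15 against 13.2% and 19.4% of all genes. Neither JUP nor the other list members was called for a difference of a treatment effect between the lines. In normoxia, CDH2, CAV1, CDH3, JUP, PKP3 and EZR were lower in MDA-MB-231 in T and OCLN was higher, 7 of 16 against 40.7% of all genes. In P CDH2, CAV1, CDH3, JUP and PKP3 were lower and OCLN, CTNNB1 and CDH1 were higher, 8 of 16 against 45.4%. CDH1 was near 0 in both lines, with at most 16 counts in a library of MCF10A and 10 in one of MDA-MB-231. OCLN had at most 19 counts in a library of MCF10A, and CDH2 and CDH3 had at most 38 and 21 in one of MDA-MB-231. Nothing is read from the calls of these genes between the lines. Between HPP and H in MCF10A, JUP was higher in HPP in T, and JUP and EZR in P, against 3.74% and 6.50% of all genes, and in MDA-MB-231 DSP was higher in P, against 11.5%.

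The last list held 17 kinases and turnover factors of GJA1, all tested. In MCF10A SRC, which phosphorylates GJA1, fell under HPP by 1.26 on the log2 scale in T and by 1.22 in P, the 1 member called of 17 in each, against 14.9% and 22.2% of all genes. In MDA-MB-231, where GJA1 is expressed, NEDD4, a ubiquitin ligase that acts on GJA1, rose under HPP by 0.70 ± 0.19 in T and 0.84 ± 0.19 in P, and the kinase MAPK7 by 0.92 ± 0.18 and 1.18 ± 0.18. PRKACA, the catalytic subunit of protein kinase A, fell in P by 0.38. These were 2 of 17 in T and 3 of 17 in P, against 13.2% and 19.4% of all genes. None was called in H or NPP in either line. Between HPP and H, PRKCD was the 1 member called, higher in HPP in P of MCF10A (1.06 ± 0.27), against 6.50% of all genes. Between the lines in normoxia 2 of 17 were higher in MDA-MB-231 and 5 lower in T, and 3 were higher and 4 lower in P, against 40.7% and 45.4% of all genes. For HPP the list's median log2 change was 0.003 (T) and 0.05 (P) in MCF10A, and for MDA-MB-231 it was 0.13 (T) and 0.15 (P), beside medians over all genes of -0.01, -0.04, -0.05 and 0.01.

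The genes whose log2 CPM ran most like each connexin were named by Pearson's r over the 16 libraries of its line, as a description. For GJB2 in MCF10A they were B3GALT4 (r = 0.949), C10orf10 (0.942) and STC2 (0.939). For GJB5 they were DDAH2 (0.964), TREX1 (0.964) and ARRDC1 (0.961). For GJC1 they were WHSC1L1 (0.978), NUFIP2 (0.973) and PDZD8 (0.972), and for GJA1 in MDA-MB-231 TMEM38B (0.876), RBM18 (0.864) and SLC35F2 (0.854). The points share treatment, fraction and the drift with transcript length between replicates. Among the connexins of MCF10A, GJB2 and GJB5 ran together (r = 0.673), GJB5 and GJC1 apart (-0.618), and GJB2 and GJC1 were at -0.298. In MDA-MB-231 GJA1 and GJB2 were at -0.428.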

How the data were processed

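Total and polysomal mRNA of MCF10A and MDA-MB-231 cells was sequenced in 32 libraries, 2 per group. The deposited tables hold expected counts per gene, which the authors made with STAR and RSEM. The labels name GRCh37 and the study's methods GRCh38. Positions and lengths here are from GENCODE v44 on GRCh38 and do not enter the counts. All expected counts were whole, so rounding changed 0 values, and 0 sample columns were left unmapped. Columns were matched to samples by the barcode in the labels.

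Protein-coding genes were filtered with filterByExpr, scaled by TMM and tested with edgeR 4.0.16 (quasi-likelihood F-test, limma 3.58.1, R 4.3.3) in 1 fit per line (8 groups, 8 residual degrees of freedom) and 1 joint fit of both lines (16 groups, 16 residual degrees of freedom), with Benjamini-Hochberg adjustment over all genes tested in each of 36 comparisons and a threshold of 0.05. SE was taken as the log2 fold change divided by the square root of F. The MCF10A fit had a common biological CV of 0.325, and the MDA-MB-231 fit one of 0.150. Te was an interaction of fraction and treatment. A single gene in 2 against 2 libraries cannot go below an exact two-sided permutation p of 0.333, so calls rest on the spread shared over genes and groups. Nothing in the labels says how the replicate cultures were separated, so p-values measure the spread between these libraries. DESeq2 1.42.0, other scaling and filters, replicate blocks, smaller fits and left-out libraries were tried. The PP242-by-hypoxia interaction and a transcript length offset (loess, span 0.3) were added after the data had been seen. Each fit was tested on simulated data, but the outcome is not given here and no result rests on it. TPM used union exon lengths, which matched 98.4% of protein-coding genes.

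The 5 connexins and the 4 lists (other connexins, pannexins, junction partners, kinases and turnover factors of GJA1) were chosen with earlier results of these data known. Each connexin is named in every comparison, CA9 is named as the check of hypoxia, at most 4 called members of a list are given with values, by smallest p, and the 3 genes most like each connexin by Pearson's r. Some genes that this rule names are not reported here.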

Additional observations from a re-analysis of the deposited data

Results flagged for a closer look

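The effect of hypoxia on GJB2 differed between the lines by the test of the difference itself, in the joint fit with edgeR. For H against N the MDA-MB-231 effect minus the MCF10A effect was -4.72 in T (adjusted p = 0.001385) and -4.32 in P (adjusted p = 0.00329). For HPP against N it was -3.44 in T (adjusted p = 0.004586) and -3.09 in P (adjusted p = 0.007843). Both MCF10A hypoxic libraries of each fraction lay above both N libraries, while the H libraries of MDA-MB-231 lay below theirs, in T by a log2 value of -0.76 and in P by -0.58, neither called. Without N P replicate 1 the log2 change of GJB2 in P of MDA-MB-231 was 0.0016. GJB2 had 161 to 263 counts in the MCF10A N libraries and 58 to 117 in those of MDA-MB-231. Groups of 2 libraries were too small for a test of single outlying libraries.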

How the results depend on the processing

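RLE scaling, no filter on low counts and all gene classes left each count of connexins called and each direction as reported, as did a block by culture (T and P libraries that share a number in their titles), which was run for Te and P against T only. The number called in MCF10A HPP against N in T went from 1 to 2, with GJB5 beside GJB2, under a threshold of 0.10, a replicate block within each fraction, the length offset and DESeq2, and that in P went from 1 to 2 with the length offset. P against T in MCF10A went from 0 to 1 (GJB5) with the replicate block within each fraction. The interaction went from 0 to 1 (GJB2) in T and in P with DESeq2. With only the 4 libraries compared, MCF10A NPP in T, H in P and NPP in P went from 1 to 0, at GJB2 log2 values of 1.68, 3.72 and 1.53. That fit has fewer libraries. The line difference of HPP in P went from 1 to 2 (GJA1, with 18 of its 21 MCF10A counts in HPP P replicate 2, beside GJB2) with the replicate block, the block within each fraction and DESeq2. The cause of these changes, those in the fit of only the 4 libraries compared among them, was not tested.

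Replicate numbers were not taken to pair libraries across conditions, since the correlations were not all over 0.1. Correlations of same-numbered deviations ran from -0.641 to 0.778 in MCF10A (11 of 28 over 0.1) and from -0.187 to 0.348 in MDA-MB-231 (19 of 28). The replicate block turned GJB2 in MDA-MB-231 NPP against N in T from 0.08 to -0.0237, as did the block within each fraction (-0.0228). With either block HPP against H in MDA-MB-231 T went from 0 to 1 called (GJA1, -0.59 and -0.60).

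Leaving out 1 library gave 0 to 1 called for MCF10A NPP in T, 0 to 0 for NPP in P, 0 to 1 for MDA-MB-231 HPP in T and for P against T (GJC1, which enters the tests without N T replicate 1), and 0 to 2 for the line difference of HPP in P, which was 2 without MCF10A HPP P replicate 1 and 0 without MDA-MB-231 N P replicate 1. Directions turned within these log2 ranges. In MCF10A they were -0.60 to 0.0096 (H), -0.43 to 0.11 (NPP) and -0.56 to 0.0273 (HPP) for Te of GJB2, -0.20 to 0.67 (NPP, T), -0.66 to 0.22 (NPP, P) and -0.0292 to 0.52 (HPP against H, P) for GJB5, and -0.44 to 0.12 (H, P) and -1.61 to 0.0319 (HPP against H, T) for GJC1. In MDA-MB-231 they were -0.0131 to 0.31 (H, P), -0.26 to 0.0622 (NPP, P), -0.41 to 0.0778 (HPP, P) and -0.0707 to 0.26 (P against T) for GJA1. For GJB2 they were -1.09 to 0.76 (NPP, T), -1.01 to 0.0016 (H, P), -0.46 to 1.08 (NPP, P), -0.51 to 0.49 (HPP, P) and -0.38 to 0.63 (P against T). GJB2 had 40 to 282 counts per library in MDA-MB-231, and no detection limit was computed.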
